A study of Mus musculus with 10 samples.

Results

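The Notch pathway genes examined here are 4 receptors (Notch1, Notch2, Notch3 and Notch4), 4 ligands (Jag1, Jag2, Dll1 and Dll4) and 2 target genes (Hes1 and Hey1). These 10 genes were chosen by name, out of 24062 genes counted in the pancreas of 5-day-old (P5) mice. RNA of the pancreas of 5 WT and 5 KSR23 mice was sequenced, with 1 library per mouse. KSR23 mice carry a ROSA26 cassette for both subunits of IL-23 behind a floxed STOP signal, and the K14-cre transgene, whose keratin promoter removes the STOP signal in keratinocytes. WT mice were littermates, and both groups were C57BL/6 mice at P5. The promoter acts in keratinocytes and other K14+ epithelia, so the pancreas was not the intended site of IL-23 expression. In this tissue Krt14 averaged 2.03 CPM (gene counts as a rate over the library total, scaled by edgeR) in WT and 2.21 CPM in KSR23 mice, and Krt5, its partner keratin, had 0 counts in all 10 libraries. Il23a, which encodes one IL-23 subunit, ranged from 0.0373 to 0.316 CPM in WT and from 0.857 to 1.21 CPM in KSR23 mice, so all 5 KSR23 libraries lay above all WT libraries. Il12b, the gene of the other subunit, ranged from 0 to 0.24 CPM in WT and from 0.0889 to 0.327 CPM in KSR23 mice.

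Notch receptors are cleaved in steps. A furin-type protease cuts the receptor on its way to the cell surface, a ligand on a neighbouring cell exposes a second site to an ADAM protease, and gamma-secretase then frees the intracellular part, which binds RBPJ on DNA and turns on genes such as Hes1 and Hey1. HES and HEY proteins are basic helix-loop-helix repressors. In the embryonic pancreas the pathway restrains endocrine and acinar differentiation, and after birth Hes1 is known from duct and centroacinar cells, Notch3 from mural cells of blood vessels, and Notch4 and Dll4 from endothelium.

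HES and HEY proteins differ near their end, in a tetrapeptide through which HES proteins bind Groucho corepressors. The last 60 coding bases of Hes1, Hes6 and Heyl, up to and including the stop codon, are shown because these 3 genes gave different results below. They were read from GENCODE M21 transcripts on GRCm38, each from 1 exon, with the codons of the tetrapeptide in capitals. The Hes1 stretch lies at chr16:30067369-30067428 on the plus strand, Hes6 at chr1:91412058-91412117 on the minus strand and Heyl at chr4:123246571-123246630 on the plus strand.
Hes1: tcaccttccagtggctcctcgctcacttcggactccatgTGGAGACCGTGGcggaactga
Hes6: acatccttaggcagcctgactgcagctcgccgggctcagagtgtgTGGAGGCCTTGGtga
Heyl: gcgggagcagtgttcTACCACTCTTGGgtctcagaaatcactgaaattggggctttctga
The capitals encode WRPW in Hes1 (282 residues) and Hes6 (224 residues) and YHSW in Heyl (326 residues). WRPW is followed by 2 residues in Hes1 and by the stop codon in Hes6, whereas 10 residues follow the tetrapeptide in Heyl.

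The libraries held between 26830235 and 33189132 reads counted on genes in WT mice and between 16715976 and 57784136 in KSR23 mice. All 10 Notch genes had at least 33 counts in every library and passed the filter of at least 5 counts in each, as did 13882 genes in all. The 2 groups separated on component 1 of a principal component analysis (51.1% of the variance). KSR23 replicate 3, the smallest library, stood apart on component 2 (9.28%). Acinar markers, which define the labelled tissue, summed to between 119000 and 134000 CPM in WT and between 60500 and 78500 CPM in KSR23 mice. All 8 were lower in KSR23 mice, while 7 of 8 duct markers and 7 of 7 macrophage and leukocyte markers were higher. In bulk pancreas, fewer cells of a type and less RNA per cell cannot be told apart.

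KSR23 mice were compared with WT mice to ask whether Notch receptors, ligands and targets are expressed at other levels in the pancreas of neonates exposed to IL-23. Hes1 rose 1.73-fold, and none of the other 9 genes passed the threshold, an adjusted p of 0.05 in edgeR's quasi-likelihood F test with Benjamini-Hochberg adjustment over all 13882 genes. Thus 1 of 10 genes was called higher, whereas 16.2% of all tested genes were called higher. None was called lower, by this test, by the likelihood ratio test or by DESeq2, whereas 14.8% of all tested genes were called lower. At an unadjusted p under 0.05, 3 of 10 genes stood higher (Hes1, Notch3 and Notch4) and 0 lower, whereas 21.1% of all tested genes stood higher and 20.2% lower. The KSR23 libraries lay above all WT libraries without overlap for 1 of 10 genes (10.7% of all tested genes) and below them for 0 of 10 (8.74% of all tested genes). The median log2 fold change (FC) was 0.22 over the 10 genes and -0.01 over all tested genes.

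**Figure D1:**
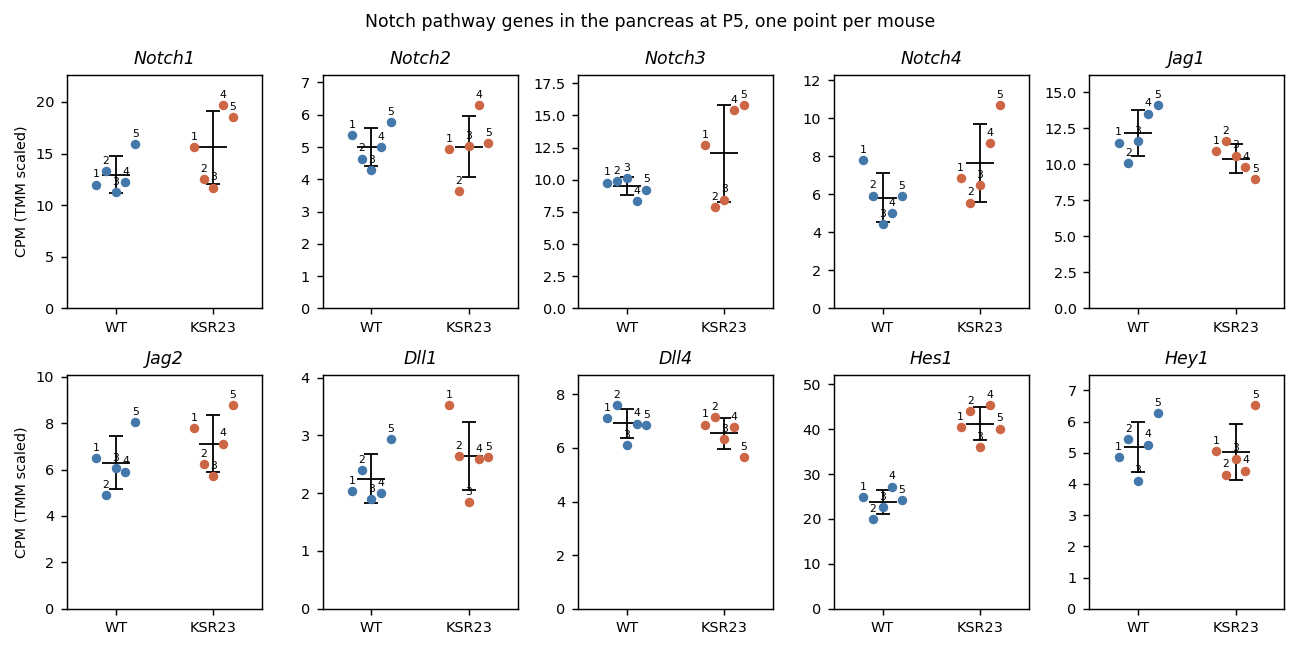
Level of each of the 10 Notch pathway genes in CPM (y axes, starting at 0) in each WT and KSR23 mouse, with bars at the group mean ± SD (n = 5). The points of Hes1 do not overlap between groups (20.0 to 27.2 CPM in WT, 36.0 to 45.3 CPM in KSR23), and those of the other 9 genes do.

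Hes1 (ENSMUSG00000022528.8, GRCm38 chr16:30064384-30067796, plus strand), the bHLH repressor with the WRPW end shown above, was the only called gene among the 10. In WT replicates 1 to 5 it stood at 24.9, 20.0, 22.7, 27.2 and 24.2 CPM, and in KSR23 replicates 1 to 5 at 40.5, 44.1, 36.0, 45.3 and 40.1 CPM. The lowest KSR23 library was above the highest WT library. Group means were 23.8 ± 2.68 CPM in WT and 41.2 ± 3.68 CPM in KSR23 mice (SD, n = 5), a log2 FC of 0.79 (SE 0.0881, 95% interval 0.61 to 0.98, adjusted p = 1.86e-06). These levels rest on 583 to 2243 counts per library. All 1394 windows of 75 bases (the read length) along its transcript occur in no other annotated gene, and no other gene overlaps its exons.

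The duct markers moved with Hes1. They summed to between 1350 and 1500 CPM in WT and between 2290 and 2480 CPM in KSR23 mice, with 7 of 8 called higher and Krt19 not called (log2 FC -0.05, adjusted p = 0.663). Spp1 (means of 754 CPM in WT and 1310 CPM in KSR23 mice) and Krt18 (305 and 558 CPM) weigh most in this sum. Sox9, a transcription factor of duct and progenitor cells that is one of the duct markers, was at 67.1, 68.4, 49.4, 65.1 and 66.3 CPM in WT and at 123, 96.7, 91.6, 122 and 141 CPM in KSR23 mice. The groups did not overlap, and its log2 FC was 0.86 (SE 0.11, adjusted p = 1.03e-05). The within-library log2 ratio of Hes1 over Sox9 had a median of -1.43 in both groups, with a range from -1.77 to -1.12 in WT and from -1.81 to -1.13 in KSR23 mice. This ratio was added after the values were seen and has no test. The part of the duct markers in the rise of Hes1 was not tested.

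The 3 tested genes whose log2 CPM ran closest to that of Hes1 over the 10 libraries were Pald1 (r = 0.978), Efna4 (r = 0.973) and Cbx7 (r = 0.971). Cbx7 is a Polycomb chromodomain protein and Efna4 an ephrin ligand. They had log2 FCs of 0.45, 1.14 and 0.93, so these correlations, across 10 libraries in 2 separate groups, hold the group difference. Within groups, the correlation of deviations from the group means was 0.77 for Pald1, 0.722 for Efna4 and 0.716 for Cbx7. The values describe these libraries and carry no p.

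Hey1 (GRCm38 chr3:8663359-8667256, minus strand), the other target gene and a repressor known from developing heart and vessels, gave no detectable difference. It stood at 4.87, 5.43, 4.11, 5.26 and 6.26 CPM in WT and at 5.06, 4.30, 4.81, 4.43 and 6.52 CPM in KSR23 mice. The groups overlapped across nearly their whole range. The means were 5.19 ± 0.786 and 5.02 ± 0.889 CPM (SD, n = 5), with a log2 FC of -0.04 and a 95% interval from -0.36 to 0.28 (adjusted p = 0.874). That interval lies below the one of Hes1.

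The within-library log2 ratio of Hey1 over Hes1 does not depend on how libraries are scaled, and it was between -2.45 and -1.87 in WT and between -3.34 and -2.61 in KSR23 mice. All 5 KSR23 values lay below all 5 WT values. The mean fell by 0.84, from -2.19 ± 0.264 to -3.03 ± 0.313 (exact permutation test, two-sided, p = 0.00794, the smallest that 5 mice against 5 allow). Adjusted over the 8 ratios tested, p was 0.0635, which misses the threshold and is the smallest value that a lone minimum among 8 can reach.

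Other HES and HEY genes came from a list of 7, of which 4 passed the filter. Heyl (GRCm38 chr4:123233556-123249875, plus strand), a HEY family repressor known from vascular smooth muscle, was at 33.9, 36.8, 35.1, 37.8 and 37.4 CPM in WT and at 23.5, 21.6, 24.0, 21.1 and 24.8 CPM in KSR23 mice. All KSR23 libraries lay below all WT libraries. Its log2 FC was -0.65 (SE 0.073, 95% interval -0.81 to -0.50, adjusted p = 1.92e-06), from a mean of 36.2 ± 1.65 to 23.0 ± 1.58 CPM. Thus Hes1 rose and Heyl fell in the same mice, and the log2 ratio of Heyl over Hes1 moved from between 0.45 and 0.88 in WT to between -1.10 and -0.58 in KSR23 mice (added after the values were seen, no test).

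Hes6, which shares the WRPW end with Hes1, was at 29.2, 22.4, 25.4, 25.9 and 27.4 CPM in WT and at 21.3, 21.4, 27.7, 22.1 and 26.2 CPM in KSR23 mice. The groups overlapped (log2 FC -0.14, 95% interval -0.34 to 0.06, adjusted p = 0.287). Hes7 averaged 1.40 and 0.987 CPM and Hey2 0.887 and 0.67 CPM in WT and KSR23 mice, with log2 FCs of -0.47 each and adjusted p-values of 0.173 and 0.405. Hes5, a Notch target of neural progenitors, had at most 5 counts in any library, Hes2 at most 2, and Hes3 had 0 in all 10, which allows up to 0.168 CPM in the smallest library (3 counts). These 3 genes were not tested.

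**Figure D2:**
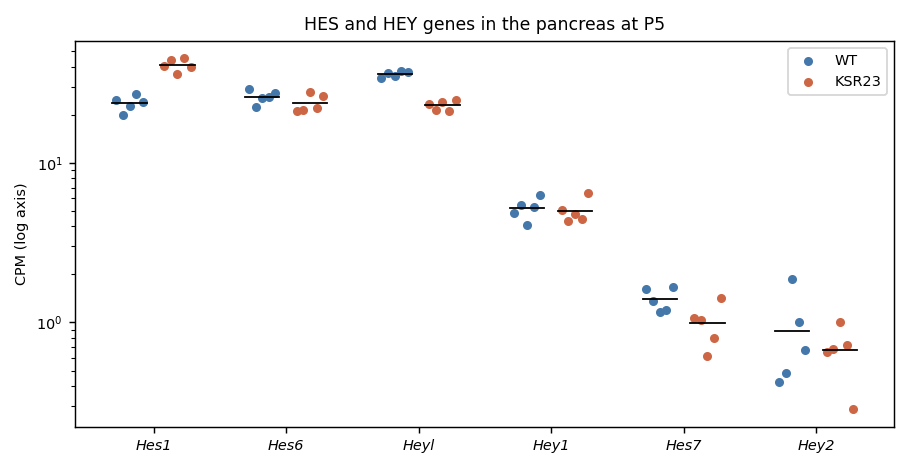
Level of 6 HES and HEY genes in CPM (y axis, log scale, not corrected for transcript length) in each WT and KSR23 mouse (points), with lines at the group mean (n = 5). Hes1 lies higher in all 5 KSR23 mice and Heyl lower in all 5, while the points of Hey1 and Hes6 overlap between groups.

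Among the receptors, Notch1 (GRCm38 chr2:26457903-26516663, minus strand) is the family member most widely used across tissues. It stood at 12.0, 13.3, 11.3, 12.2 and 15.9 CPM in WT and at 15.6, 12.5, 11.7, 19.7 and 18.5 CPM in KSR23 mice. KSR23 replicates 4 and 5 were above every WT mouse, and replicates 1, 2 and 3 lay within the WT range. The means were 12.9 ± 1.81 and 15.6 ± 3.52 CPM (SD, n = 5), with a log2 FC of 0.28 (95% interval -0.01 to 0.57, adjusted p = 0.137). Without KSR23 replicate 3 the log2 FC was 0.36 and the adjusted p was 0.0416 (range over 19 alternatives 0.0416 to 0.348). Of the exon bases of Notch1, 14.6% are overlapped by 0610009E02Rik and Gm13568.

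Notch2 (GRCm38 chr3:98013527-98150361, plus strand), a receptor of embryonic pancreas and of many epithelia, was at 5.36, 4.64, 4.28, 5.00 and 5.78 CPM in WT and at 4.93, 3.64, 5.03, 6.30 and 5.13 CPM in KSR23 mice. The KSR23 mice spanned the WT range on both sides. Both means were 5.01 CPM, with SDs of 0.586 and 0.942, and the log2 FC was 0.00 with a 95% interval from -0.32 to 0.32 (adjusted p = 0.996). Of its 75-base windows 96.9% are its own, and the rest also occur in Gm42820. The log2 ratio of Notch2 over Notch1 was -1.36 ± 0.144 in WT and -1.62 ± 0.245 in KSR23 mice, a difference of -0.26 (two-sided exact permutation test, p = 0.0794, adjusted p = 0.18). KSR23 replicate 3 (-1.21) was the only KSR23 library inside the WT range of -1.51 to -1.15. Without it the difference was -0.36 (exact permutation test, adjusted p = 0.0317). The groups then do not overlap, so this test must give the smallest p that 4 mice against 5 allow (0.00794). That value follows from which mouse was left out, and no conclusion is drawn from it.

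Notch3 (GRCm38 chr17:32120820-32166852, minus strand), the receptor of mural cells, was at 9.78, 9.89, 10.1, 8.36 and 9.24 CPM in WT and at 12.7, 7.85, 8.45, 15.4 and 15.8 CPM in KSR23 mice. The WT mice lay close together, and the KSR23 mice split to both sides of them, with replicates 1, 4 and 5 above every WT mouse and replicate 2 below. The means were 9.47 ± 0.696 and 12.0 ± 3.75 CPM (SD, n = 5), and the log2 FC was 0.36 (95% interval 0.01 to 0.71, unadjusted p = 0.0439, adjusted p = 0.109). The adjusted p was 0.0198 without KSR23 replicate 2 and 0.0326 without KSR23 replicate 3, and over 19 alternatives it lay between 0.0198 and 0.30.

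Notch4 (GRCm38 chr17:34564268-34588503, plus strand), the endothelial receptor, was at 7.82, 5.94, 4.43, 5.03 and 5.89 CPM in WT and at 6.85, 5.57, 6.49, 8.69 and 10.7 CPM in KSR23 mice. Replicates 4 and 5 of the KSR23 group were above every WT mouse, and the other 3 fell within the WT range. The means were 5.82 ± 1.28 and 7.65 ± 2.03 CPM (SD, n = 5), with a log2 FC of 0.41 (95% interval 0.03 to 0.78, unadjusted p = 0.0348, adjusted p = 0.0917). The adjusted p was 0.0336 without WT replicate 1, 0.039 without KSR23 replicate 2 and 0.0423 with libraries scaled by their totals alone, and its highest value over 19 alternatives was 0.297.

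The deviations of Notch1, Notch3 and Notch4 from their group means followed a shared order among the KSR23 mice. On the log2 scale Notch3 deviated by 0.14, -0.55, -0.45, 0.41 and 0.45 in KSR23 replicates 1 to 5, Notch1 by 0.03, -0.29, -0.38, 0.36 and 0.27, and Notch4 by -0.12, -0.42, -0.20, 0.22 and 0.51. All 3 receptors were thus low in replicates 2 and 3 and high in replicates 4 and 5. The ligand Jag2 was also low and high in these mice, at 0.14, -0.18, -0.30, 0.02 and 0.32 in KSR23 replicates 1 to 5. Over the 10 libraries, which the genes share, the deviations correlated with r = 0.798 for Notch1 with Notch3, 0.696 for Notch3 with Notch4 and 0.635 for Notch1 with Notch4, given as a description. The WT mice showed no such shared order. In WT replicates 1 to 5 Notch3 deviated by 0.05, 0.07, 0.09, -0.18 and -0.03. Notch1 deviated there by -0.10, 0.05, -0.18, -0.08 and 0.31, and Notch4 by 0.45, 0.06, -0.36, -0.18 and 0.04. The transcripts of these receptors are GC-rich (57.1%, 59.6% and 61.2%), as is that of Jag2 (61.9%). The median deviation of the 1333 most GC-rich genes (at least 58.3%, which leaves out Notch1) was -0.02, -0.07, 0.00, 0.05 and 0.05 in KSR23 replicates 1 to 5. The part of GC content in the order of the mice was not tested. After subtracting the linear trend of all tested genes with GC content and length, the log2 FC was 0.12 for Notch1, 0.16 for Notch3, 0.17 for Notch4 and 0.77 for Hes1. Summed over the 4 receptors, the level ranged from 30.1 to 36.8 CPM in WT and from 29.6 to 50 CPM in KSR23 mice.

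**Figure D3:**
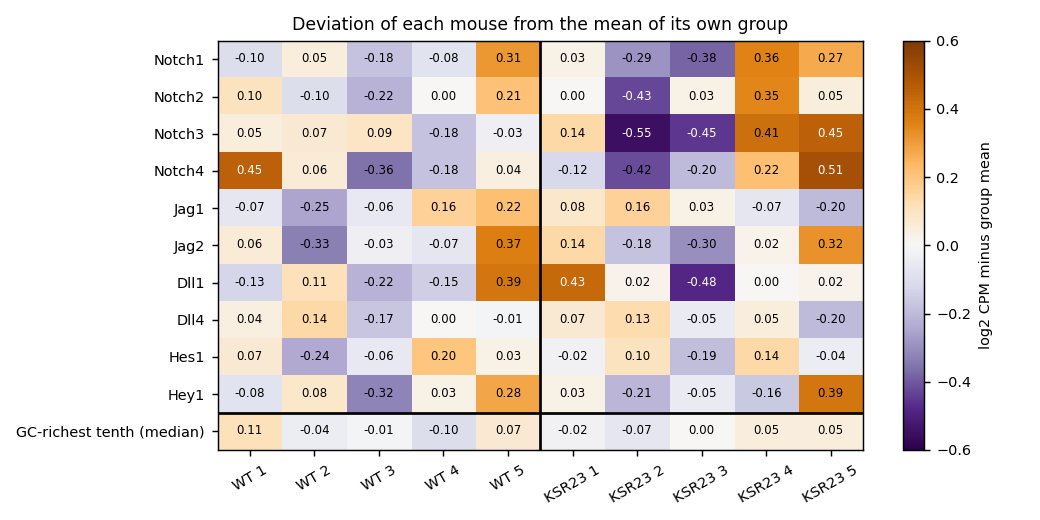
Deviation of each Notch gene's log2 CPM from its group mean (color and printed value) in each of the 10 libraries (columns). Notch1, Notch3, Notch4 and Jag2 are below the group mean in KSR23 replicates 2 and 3 and above it in replicates 4 and 5. Over the 10 libraries Hes1 (-0.24 to 0.20), Dll4 (-0.20 to 0.14) and Jag1 (-0.25 to 0.22) span narrower ranges than these 4 genes, though not every library shows this.

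Levels of Notch3 and Notch4 were set beside markers of the cells known to express them. Endothelial markers summed to between 228 and 246 CPM in WT and between 219 and 254 CPM in KSR23 mice, with 2 of 8 called higher and 2 called lower. Mural markers summed to between 184 and 209 CPM in WT and between 162 and 187 CPM in KSR23 mice. Of these 8, 1 was called higher (Pdgfrb, the PDGF receptor of pericytes, log2 FC 0.35). The 2 called lower were Rgs5 (log2 FC -0.26) and Acta2 (log2 FC -0.48). Acta2 had the highest level of the mural markers, with means of 85.5 CPM in WT and 61.3 CPM in KSR23 mice, and so weighs most in their sum. The log2 ratio of Notch4 over endothelial markers was -5.36 ± 0.336 in WT and -4.97 ± 0.353 in KSR23 mice, and that of Notch3 over mural markers was -4.37 ± 0.0935 and -3.92 ± 0.502. The differences, 0.39 and 0.45, each had p = 0.135 and an adjusted p of 0.18 in the exact permutation test. The log2 ratio of Notch4 over Notch3 differed by 0.09 (exact permutation p = 0.611, adjusted p = 0.611). Heyl is known from vascular smooth muscle, and which cells of this tissue express it was not tested. The log2 ratio of Heyl over Notch3 lay between 1.79 and 2.17 in WT and between 0.46 and 1.5 in KSR23 mice (added after the values were seen, no test).

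Among the ligands, Jag1 (GRCm38 chr2:137081456-137116644, minus strand), a Jagged ligand of duct and vessel walls, was at 11.5, 10.1, 11.6, 13.5 and 14.1 CPM in WT and at 10.9, 11.6, 10.6, 9.81 and 8.98 CPM in KSR23 mice. KSR23 replicates 4 and 5 were the only KSR23 mice below the whole WT range. The means were 12.2 ± 1.61 and 10.4 ± 0.995 CPM (SD, n = 5), with a log2 FC of -0.23 (95% interval -0.47 to 0.00, adjusted p = 0.123).

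Jag2 (GRCm38 chr12:112907819-112929776, minus strand), the second Jagged ligand, was at 6.48, 4.91, 6.08, 5.91 and 8.05 CPM in WT and at 7.78, 6.22, 5.71, 7.12 and 8.77 CPM in KSR23 mice. Only KSR23 replicate 5 was above every WT mouse. The means were 6.28 ± 1.14 and 7.12 ± 1.22 CPM, with a log2 FC of 0.19 (95% interval -0.12 to 0.50, adjusted p = 0.344). The log2 ratio of Jag2 over Jag1 was -0.82, -1.04, -0.92, -1.18 and -0.80 in WT and -0.48, -0.89, -0.88, -0.46 and -0.03 in KSR23 mice. The mean rose from -0.95 to -0.55, a difference of 0.40 that did not pass the test (two-sided exact permutation test, p = 0.0635, adjusted p = 0.18).

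Dll1 (GRCm38 chr17:15367354-15376872, minus strand), the Delta ligand known from endocrine progenitors, was at 2.03, 2.40, 1.90, 2.0 and 2.94 CPM in WT and at 3.52, 2.64, 1.85, 2.59 and 2.63 CPM in KSR23 mice. The means were 2.26 ± 0.430 and 2.64 ± 0.594 CPM, and the log2 FC of 0.25 had the widest interval of the 10 genes, from -0.17 to 0.66 (adjusted p = 0.376). Its levels rest on 33 to 147 counts, and 17.4% of its exon bases are overlapped by A930024N18Rik, so its reads may be shared where counting did not use strand. Neurog3, the factor of endocrine progenitors, was at 0.677 ± 0.584 CPM in WT and 0.583 ± 0.276 CPM in KSR23 mice (adjusted p = 0.782).

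Dll4 (GRCm38 chr2:119325784-119335962, plus strand), the Delta ligand of sprouting endothelium, was at 7.12, 7.59, 6.11, 6.91 and 6.86 CPM in WT and at 6.87, 7.14, 6.32, 6.77 and 5.66 CPM in KSR23 mice. The groups overlapped, with only KSR23 replicate 5 outside the WT range. The means were 6.92 ± 0.535 and 6.55 ± 0.579 CPM, with a log2 FC of -0.08 (95% interval -0.32 to 0.16, adjusted p = 0.645). The log2 ratio of Dll4 over endothelial markers differed by -0.06 (exact permutation p = 0.452, adjusted p = 0.517) and that of Dll4 over Dll1 by -0.29 (p = 0.119, adjusted p = 0.18). Summed over the 4 ligands, the level was 27.6 ± 2.73 CPM in WT and 26.7 ± 1.73 CPM in KSR23 mice.

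**Figure D4:**
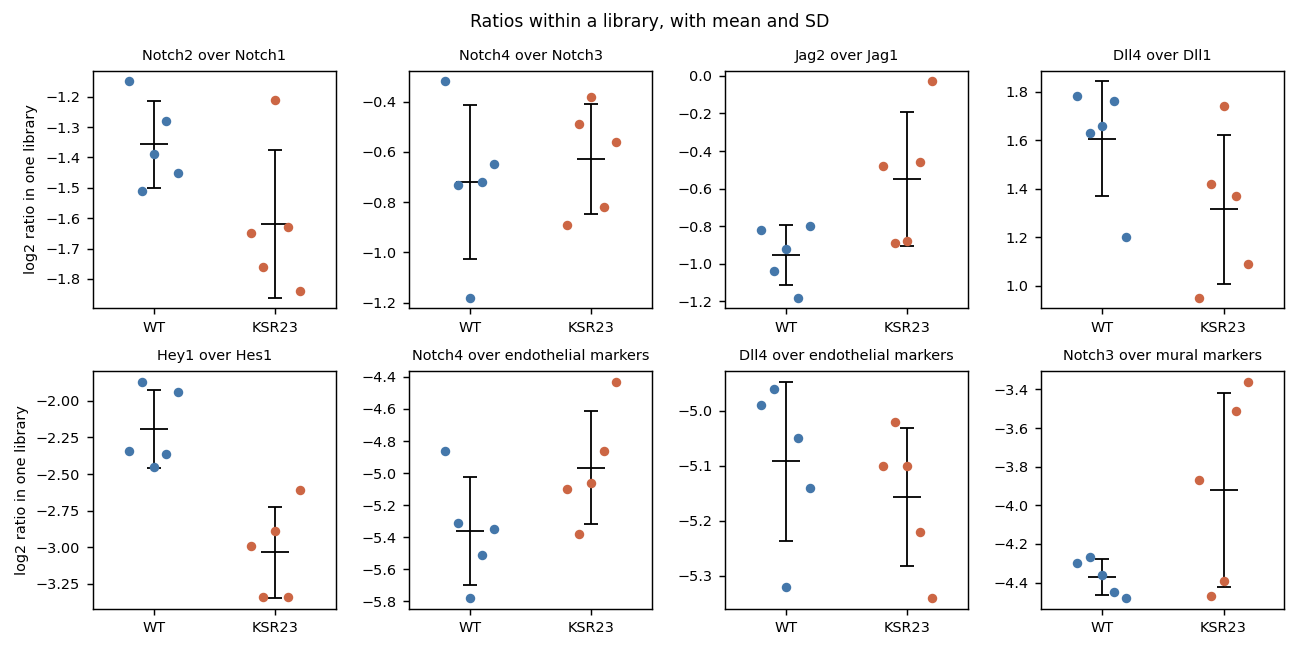
The 8 tested within-library log2 ratios (y axes) in each WT and KSR23 mouse, with bars at the group mean ± SD (n = 5). The values of Hey1 over Hes1 do not overlap between groups, and those of the other 7 ratios do.

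Levels of different genes were set in order per kilobase of transcript. In WT mice Hes1 was highest at 16.2 ± 1.83 CPM per kilobase and did not overlap with the next gene. Jag1 (2.17), Hey1 (2.14), Dll4 (1.85), Notch1 (1.36), Jag2 (1.23), Notch3 (1.18), Notch4 (0.883), Dll1 (0.63) and Notch2 (0.477) followed in CPM per kilobase, and each of these overlapped with its neighbour in the order. In KSR23 mice Hes1 was again highest at 28.1 ± 2.51 CPM per kilobase, with Hey1 next at 2.07, and Notch2 was again lowest at 0.477.

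The rest of the pathway was taken from lists by role with 53 genes, of which 48 were tested. Of these, 12 rose, 7 fell and 29 did not pass the test, with a median log2 FC of 0.03. Over all 13882 tested genes, 16.2% were called higher and 14.8% lower. The counts by role below are to be read beside these shares. With each alternative setting and each library left out in turn, 9 of the 12 higher genes (among them Ctbp2, Dtx1, Dtx3, Dtx3l, Dtx4, Furin, Kat2a and Maml3) and 4 of the 7 lower genes (Aph1b, Heyl, Lfng and Mib1) remained called. With libraries scaled by their totals alone, 3075 of all tested genes were called higher and 1161 lower, in place of 2250 and 2049, which took their median log2 FC from -0.01 to 0.09.

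**Figure D5:**
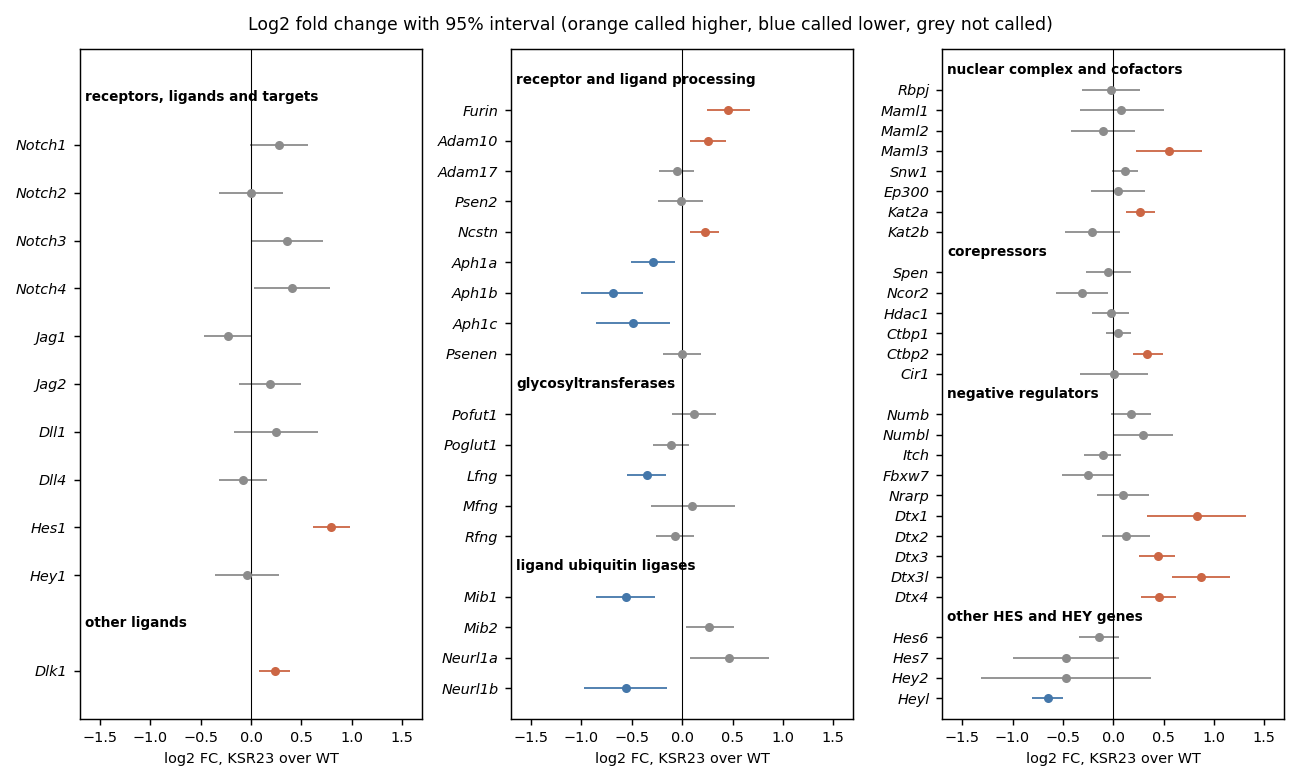
Log2 FC of KSR23 against WT mice (x axis) with its 95% interval for tested Notch pathway genes (y axis), grouped by role, with called genes colored. Hes1 (0.79), Dtx3l (0.87) and Dtx1 (0.83) have the largest positive values among called genes, and Aph1b (-0.69) and Heyl (-0.65) the largest negative ones.

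Of 10 genes that process receptors and ligands, 4 were higher and 3 lower. Furin, the protease of the first receptor cut, was at 29.3, 28.4, 32, 29.9 and 31.1 CPM in WT and at 47.6, 35.1, 32.2, 49.1 and 42.6 CPM in KSR23 mice. No KSR23 mouse reached down to the WT range (log2 FC 0.46, SE 0.102, adjusted p = 0.0023). Adam10, the ligand-dependent protease, rose with a log2 FC of 0.26 (adjusted p = 0.0263), a call lost in 5 of 19 alternatives. Its relative Adam17 did not pass (log2 FC -0.05, adjusted p = 0.679).

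Among the parts of gamma-secretase, Ncstn, which encodes nicastrin, rose with a log2 FC of 0.23 (adjusted p = 0.0192, lost in 2 of 19 alternatives). Psen2 and Psenen did not pass (log2 FCs of -0.01 and 0.00). The 3 genes of the APH1 subunit fell. Aph1b was at 4.42, 3.78, 4.85, 5.03 and 4.02 CPM in WT and at 2.87, 2.79, 2.74, 2.61 and 2.68 CPM in KSR23 mice, without overlap (log2 FC -0.69, adjusted p = 0.00155). Aph1c (log2 FC -0.49, adjusted p = 0.0431) and Aph1a (log2 FC -0.29, adjusted p = 0.0464) lost their calls in 10 and 12 of 19 alternatives. Aph1b and Aph1c are near-identical neighbours, and only 86.4% and 87.2% of their 75-base windows are their own, so reads may be split or lost between them. For Aph1a the share was 76.3%.

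Lfng, the Fringe glycosyltransferase that changes which ligands a receptor answers to, was the only one of 5 glycosyltransferases called. It was at 47.9, 41.1, 47.4, 46.0 and 53.3 CPM in WT and at 31.9, 38.0, 31.0, 40.7 and 42.5 CPM in KSR23 mice. Only KSR23 replicate 5 reached into the WT range (log2 FC -0.35, SE 0.0938, adjusted p = 0.00838). Of 4 ubiquitin ligases that act on ligands, 2 fell. Mib1, which drives ligand endocytosis, went from 7.99 ± 1.32 to 5.38 ± 0.848 CPM without overlap of the groups (log2 FC -0.56, adjusted p = 0.00584), and Neurl1b had a log2 FC of -0.56 (adjusted p = 0.0368) that lost its call in 8 of 19 alternatives. Neurl1a and Mib2 had positive log2 FCs of 0.47 and 0.27 that did not pass (adjusted p = 0.0599 and 0.0714).

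The nuclear partner of all 4 receptors, Rbpj, was at 9.88, 12.6, 10.4, 13.7 and 12.7 CPM in WT and at 14.0, 14.1, 11.1, 10.7 and 8.45 CPM in KSR23 mice. The groups overlapped, and the log2 FC was -0.02 (95% interval -0.31 to 0.27, adjusted p = 0.918). Pseudogenes share some of its sequence, and 78.9% of its windows are its own. Of 8 genes of the nuclear complex, 2 rose: Maml3, a Mastermind coactivator (log2 FC 0.55, adjusted p = 0.0103), and Kat2a, a histone acetyltransferase (log2 FC 0.27, adjusted p = 0.00513). Of 6 corepressors, Ctbp2 rose from 31.1 ± 1.84 to 39.5 ± 1.17 CPM (log2 FC 0.34, adjusted p = 0.000843).

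Of 10 genes listed as negative regulators 4 rose, and all 4 are Deltex genes, ubiquitin ligases that have been linked to both higher and lower Notch activity. Dtx3l, which acts together with Parp9 in the interferon response, was at 3.82, 4.70, 4.36, 4.03 and 4.10 CPM in WT and at 8.15, 5.57, 8.33, 8.56 and 7.79 CPM in KSR23 mice. The groups did not overlap (log2 FC 0.87, SE 0.137, adjusted p = 0.000103), and Parp9 overlaps 8.63% of its exon bases. Dtx3 and Dtx4 rose with log2 FCs of 0.44 and 0.45 (adjusted p = 0.000737 and 0.000343), also without overlap. Dtx1, the low one, went from 1.20 ± 0.261 to 2.14 ± 0.468 CPM (log2 FC 0.83, adjusted p = 0.0114). Dtx2 did not pass (log2 FC 0.13, adjusted p = 0.433). Nrarp, a feedback inhibitor that is itself a Notch target, did not pass (10.7 ± 2.18 and 11.5 ± 0.617 CPM, log2 FC 0.10, adjusted p = 0.562), and Gm38287 overlaps 79.4% of its exon bases. All 7 macrophage and leukocyte markers tested were called higher, though their sums overlapped between groups. They summed to between 213 and 287 CPM in WT and between 259 and 599 CPM in KSR23 mice, and their part in the rise of the Deltex genes was not tested.

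Of the 3 other ligands on the list, only Dlk1, a Delta-like protein without the usual receptor-activating domain, was tested. It rose from 257 ± 23.9 to 303 ± 21.3 CPM (log2 FC 0.24, adjusted p = 0.0207), a call lost in 3 of 19 alternatives. Dll3 and Dlk2 had at most 9 and 4 counts in any library.

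Pancreas has a second RBPJ protein, RBPJL, which takes the place of RBPJ beside PTF1A in acinar cells. Rbpjl was at 455, 421, 415, 382 and 471 CPM in WT and at 322, 323, 297, 301 and 379 CPM in KSR23 mice, below all WT mice in each (log2 FC -0.40, SE 0.0771, adjusted p = 0.000673). Ptf1a fell from 28.0 ± 4.09 to 19.6 ± 2.95 CPM (log2 FC -0.50, adjusted p = 0.00218), and Ptf1aos overlaps 40.4% of its exon bases. Rbpjl and Ptf1a are among the 8 acinar markers, all of which fell, and Rbpj, which many cell types express, had the interval around 0 given above. The part of the acinar markers in these values was not tested.

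RBPJ binds the sequence GTGGGAA and its shorter core TGGGAA, which GTGGGAA contains. Both were searched on both strands in RefSeq promoter windows on GRCm38.p6, from 250 bases before to 50 bases after a start. The core occurred in 25.6% of 32851 windows and GTGGGAA in 6.38%. The 4 receptors and 4 ligands had 9 windows in all, and none held either motif. No window was analysed here for the target genes Hes1 and Hey1, so the promoter of the called gene was not searched. The 53 other pathway genes had 55 windows, which covered only 41 of them. Heyl had no window, so its promoter was not searched either. Of the 55 windows, 29.1% held the core and 12.7% held GTGGGAA. Among the 41 genes with a window, Lfng and Aph1a are called genes with GTGGGAA, and the called acinar gene Rbpjl holds it too. The Lfng window at chr5:140607091-140607390, plus strand, is shown as an example with GTGGGAA, which begins 109 bases before the start, in capitals. The core TGGGAA also occurs on the opposite strand of this window and is left in lower case.
Lfng: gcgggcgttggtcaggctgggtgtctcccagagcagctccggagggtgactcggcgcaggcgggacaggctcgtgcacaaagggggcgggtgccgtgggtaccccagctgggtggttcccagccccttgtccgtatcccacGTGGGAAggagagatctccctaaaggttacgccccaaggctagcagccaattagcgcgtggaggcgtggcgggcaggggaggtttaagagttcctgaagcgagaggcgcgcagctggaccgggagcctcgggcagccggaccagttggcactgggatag
Its choice was made after the values were seen, and a match in these letters is a description, not a binding site.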

How the data were processed

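Pancreas RNA of 5 WT and 5 KSR23 mice was analysed. The authors prepared cDNA with oligo-dT priming and PCR, aligned single-end reads of 75 bases to mm10 with TopHat2 2.1.0, counted uniquely aligned reads per gene with HTSeq 0.6.1p1 in strict intersection mode and deposited raw counts. No molecular identifiers were named. The annotation and strand setting are not given in the sources used here. The submitters' processing notes name edgeR 3.18.1 for steps made on those counts. The 5 tally rows of a file, which name no gene, were left out. Alignments that were not unique were 49.6 to 53.7% of alignments and tallies in WT and 38.5 to 42.5% in KSR23 libraries.

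Groups and replicate numbers came from the labels, with 1 mouse per library. The 13882 of 24062 genes that reached 5 counts in all 10 libraries were scaled by TMM and compared with the quasi-likelihood F test of edgeR 4.0.16 in R 4.3.3, with Benjamini-Hochberg adjustment over all tested genes. Log2 CPM used a prior count of 2. Within-library log2 ratios were compared by a two-sided exact permutation test and adjusted over 8 ratios. The lowest chi-square per degree of freedom between libraries of a group was 11.4, so none is a copy. A floor of 3 counts was 0.0536 to 0.168 CPM and covers counting error only. The scripts were tested on simulated data. Exons and transcripts are those of GENCODE M21.

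The 10 genes and the lists were chosen with earlier results of these data known. The text names all 10 genes, every called gene of the other pathway lists, genes not called where a role is described, 5 pancreas factors, 4 genes that check the labels, and the 3 genes most like the called gene. Markers are named where a result turns on them. The values of some genes under this rule are not reported here. Alternatives were DESeq2 1.42.0 and the likelihood ratio test, scaling by RLE, by library totals, or by totals that leave out the 50 most abundant genes, stricter and looser count filters, the replicate number as a block, other prior counts and marker averages for the ratios, and each mouse left out in turn. The trend with GC content and length was added after the data were seen.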

Additional observations from a re-analysis of the deposited data

Results flagged for a closer look

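The log2 ratio of Dll4 over Dll1 in WT replicate 5 was 1.2, far from the other 4 WT mice, which lay between 1.63 and 1.78. Dixon's criterion marked this sample among 36 groups of 5 that were examined, where chance gives 1.8. In this mouse Dll1 was at 2.94 CPM, above the other WT mice, and Dll4 at 6.86 CPM was within their range.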

How the results depend on the processing

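Hes1 stayed called with a log2 FC of 0.74 to 0.89 in all 19 alternatives that gave a test (highest adjusted p = 1.58e-05). With library size alone, 1161 genes were called lower over all genes, 2 of the 10 Notch genes were called higher (Notch4 and Hes1) and 4 other pathway genes lower. With 1 mouse left out, 1 to 3 of the 10 genes were called higher, namely Notch4 beside Hes1 without WT replicate 1, Notch3 and Notch4 without KSR23 replicate 2, and Notch1 and Notch3 without KSR23 replicate 3, and 4 to 7 other pathway genes were called lower, with 4 without WT replicate 2 and without KSR23 replicate 5. The mean log2 ratio changed by -0.36 to -0.21 for Notch2 over Notch1 and by -0.95 to -0.76 for Hey1 over Hes1. Without KSR23 replicate 3 the adjusted p of the exact permutation test was 0.0317 for both. Neither ratio overlaps between groups without that mouse, so each p is the smallest that 4 mice against 5 allow (0.00794). With the replicate block, 1 of the 10 genes was called, with 11 other pathway genes higher and 4 lower. The numbers name different mice, and same-numbered deviations correlated from -0.111 to 0.0661, highest with their own number in 1 of 5, so they do not pair the samples. For the ratios, the exact sign-flip test over 5 pairs cannot go below p = 0.0625. The trend with GC content and length also moved Jag2 to -0.05 and Dll4 to -0.21. Without WT replicate 5, Neurog3 had a log2 FC of 0.48 (adjusted p = 0.362). The cause of these changes was not tested. Of the 10 genes, Dll1 had the fewest counts (33 to 147) and the widest interval.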
